A study of Homo sapiens with 18 samples.

Results

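Transcript counts of 9 transcription factors were followed in BxPC-3 cells, an established line from a human pancreatic ductal adenocarcinoma. The genes were GATA6, FOXA1, FOXA2, HNF4G, PDX1, SOX9, SOX4, OTX1 and FOXP2. They were chosen by symbol as factors of the pancreatic and gut lineage and their relatives, and all 9 were found among the 58395 Ensembl identifiers of the gene count table. The choice was made with earlier results of these data known. Shares, medians and ranks of the members beside all genes are therefore description only. BxPC-3 cells in 10% serum medium received HGF at 80 ng/ml, MSP at 100 ng/ml or phosphate-buffered saline, the vehicle, and RNA was collected after 1 h or 4 h. HGF (hepatocyte growth factor) binds the tyrosine kinase MET, and MSP (macrophage-stimulating protein) binds RON, a kinase of the same family. The doses of the ligands differed. The 6 groups were HGF at 1 h, MSP at 1 h, vehicle at 1 h, HGF at 4 h, MSP at 4 h and vehicle at 4 h, with 3 libraries each and 18 in all. Whether the 3 libraries of a group stem from different cultures is not stated in the labels. The p-values therefore cover no more than the spread among these libraries, and that spread may be technical.

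As background, transcription factors of the GATA, forkhead, homeodomain, nuclear receptor and SOX families set up the gut tube and then the pancreas within it. GATA6, FOXA1, FOXA2 and PDX1 act early in this process, and SOX9 marks the progenitors and stays on in duct cells. In pancreatic cancer, GATA6 and other endodermal factors are known as marks of the better differentiated, classical tumours, whereas basal-like tumours have less of them. OTX1 and FOXP2 are best known outside the pancreas, from the forebrain and from speech circuits.

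Total counts ranged from 30556613 to 48477215 per library. Markers of duct epithelium were abundant, with 7 of 9 at 10 counts or more in every library and KRT19 at 2030 to 2540 CPM (counts relative to library size, with TMM scaling throughout), while CFTR had 0 to 6 counts. Of the acinar markers CEL made up nearly all of the signal (149 to 527 counts) and PNLIP had 0 counts in every library. Of the endocrine markers GCG and SST had 0 counts in every library and INS 0 to 2. The leukocyte markers PTPRC and CD68 had 0 to 4 and 0 to 2 counts, and the fibroblast markers COL1A2 and PDGFRB 0 to 2 and 0 to 4. Others were present in every library: COL1A1 had 255 to 512 counts, COL3A1 85 to 230 and LUM 20 to 105. CD3E had 25 to 57 and CD14 11 to 75. In all, 3 of 6 fibroblast markers and 5 of 7 leukocyte and endothelial markers had 10 counts or more in every library. CD68 shares 1789 of its 2189 exon bases with ENSG00000264772 on the same strand. The summed ductal markers moved with HGF, at 6280 to 6600 CPM in HGF libraries against 5160 to 5430 CPM in vehicle libraries at 1 h, and at 7190 to 7730 CPM in HGF libraries against 5600 to 5830 CPM in vehicle libraries at 4 h. Its genes did not all move one way: of 8 tested, 5 were called higher and 1 lower at 1 h, and 4 (KRT18, KRT8, KRT7 and CDH1) higher and 3 (KRT19, MUC1 and SLC4A4) lower at 4 h (with library totals 2 and 2, then 4 and 4). The summed leukocyte and endothelial markers moved the other way at 4 h, at 4.45 to 5.81 CPM in HGF libraries against 9.48 to 10.2 CPM in vehicle libraries. At 1 h this sum was 9.23 to 10.7 CPM in HGF libraries and 10.3 to 10.9 CPM in vehicle libraries. VWF, an endothelial gene, made up most of the 4 h gap, at 1.45 ± 0.464 CPM in HGF libraries against 5.31 ± 0.533 CPM in vehicle libraries (SD, n = 3 each). The summed acinar markers were also lower at 4 h, at 6.24 to 6.92 CPM in HGF libraries against 8.99 to 10.5 CPM in vehicle libraries, with CEL at 5.85 ± 0.202 CPM in HGF libraries against 9.22 ± 0.86 CPM in vehicle libraries. The part of these shifts in the results was not tested.

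No member was too low to test. The filter asked for about 0.279 CPM in enough libraries, and 8 of the 9 genes passed it in all 18 libraries and PDX1 in 17. PDX1 was the thinnest, with 8 to 33 counts per library, followed by FOXP2 after 4 h of HGF (16 to 29 counts), OTX1 (20 to 175 counts over all libraries) and FOXA2 (26 to 108 counts). SOX4 had the most, with 1224 to 3390 counts. Exons of 5 members overlap another annotated gene, and the sources used here do not say whether counting used strand. FOXA1 shares 16 bases with TTC6 on the opposite strand (31 to 225 counts), GATA6 shares 240 bases with GATA6-AS1 on the opposite strand (0 to 24 counts) and 321 bases with ENSG00000266283, SOX4 shares 168 bases with ENSG00000283480, and FOXP2 shares 269 bases with ENSG00000224595, which had 0 counts. FOXA2 shares 70 bases with AL121722.1 on the same strand (0 to 5 counts). For these 5 genes, with 2603 (FOXA2) to 16152 (FOXP2) exon bases each, part of the counts could belong to the partner.

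The starts of the 4 members that were lower 1 h after HGF are shown so that their control regions can be compared. They are the 250 bases before the start in RefSeq's entries for GRCh38.p14, read along the strand of the gene. Both strands were searched for 5 short motifs. The AP-1 motif was TGANTCA. The EGR motif was GCGNGGGCG, and growth factor receptors are known to switch on both of these factor families. The forkhead motif was TGTTTNC, that of GATA factors was AGATAA and that of SOX factors was ACAAAG. Matches are in capitals.
FOXA1, chr14:37595250-37595499, minus strand: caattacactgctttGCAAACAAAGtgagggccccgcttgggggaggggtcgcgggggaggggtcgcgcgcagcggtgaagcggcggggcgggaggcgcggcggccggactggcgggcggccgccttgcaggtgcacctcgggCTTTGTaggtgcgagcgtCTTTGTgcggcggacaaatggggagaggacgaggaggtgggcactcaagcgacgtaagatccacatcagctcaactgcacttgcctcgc
SOX4, chr6:21593501-21593750, plus strand: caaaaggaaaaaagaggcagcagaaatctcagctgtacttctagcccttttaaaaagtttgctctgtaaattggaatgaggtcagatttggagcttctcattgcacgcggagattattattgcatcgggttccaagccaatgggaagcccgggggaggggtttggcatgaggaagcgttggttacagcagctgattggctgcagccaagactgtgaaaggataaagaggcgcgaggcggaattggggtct
OTX1, chr2:63050580-63050829, plus strand: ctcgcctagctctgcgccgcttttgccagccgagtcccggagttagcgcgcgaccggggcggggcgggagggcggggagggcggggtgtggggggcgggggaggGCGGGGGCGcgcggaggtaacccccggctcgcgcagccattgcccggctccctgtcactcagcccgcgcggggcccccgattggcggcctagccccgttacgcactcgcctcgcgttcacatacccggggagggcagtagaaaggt
GATA6, chr18:22169339-22169588, plus strand: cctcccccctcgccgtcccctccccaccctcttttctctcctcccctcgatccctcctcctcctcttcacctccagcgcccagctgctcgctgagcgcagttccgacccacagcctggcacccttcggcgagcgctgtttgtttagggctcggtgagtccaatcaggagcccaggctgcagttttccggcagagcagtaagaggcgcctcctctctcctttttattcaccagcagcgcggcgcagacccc

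The FOXA1 stretch held 1 forkhead match, 235 bases before the start, and 3 SOX matches, at 231, 107 and 89 bases before it. The forkhead match and the farthest SOX match overlap. The OTX1 stretch held 1 EGR match 146 bases before the start, and no match was found in the SOX4 and GATA6 stretches. Among all 35116 RefSeq stretches of this length, 6.57% held the AP-1 letters, 8.41% the EGR letters, 15.5% the forkhead letters, 9.17% the GATA letters and 13.7% the SOX letters. Base composition also differed, with 75.2% G and C in OTX1, 67.2% in FOXA1, 64.4% in GATA6 and 48.8% in SOX4. A match describes the letters only. FOXP2 has entries for alternative starts and is not printed, and SOX9, FOXA2, PDX1 and HNF4G are named only.

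In vehicle-treated cells SOX4, FOXA1 and GATA6 were the leading members once counts were divided by exon length. At 1 h the vehicle libraries averaged 13.6 ± 0.462 CPM per kb for SOX4, 11 ± 0.756 for FOXA1 and 9.61 ± 0.707 for GATA6 (SD, n = 3), and the ranges of FOXA1 and GATA6 overlapped. SOX9 followed at 2.56 ± 0.273 CPM per kb. The remaining 5 members lay below 1 CPM per kb, in the order HNF4G (0.91), FOXP2 (0.819), OTX1 (0.599), FOXA2 (0.431) and PDX1 (0.233). The annotated exons of FOXP2 span 16152 bases, more than those of any other member, which lowers its value on this scale. At 4 h the vehicle order was the same, with overlapping ranges only for FOXP2 and OTX1.

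The question put by HGF against vehicle is which of these factors had moved 1 h and 4 h after the MET ligand. At 1 h SOX9 rose while FOXA1, SOX4, OTX1 and GATA6 fell, and by 4 h SOX9 and FOXA2 had risen while FOXA1, FOXP2, OTX1, HNF4G and SOX4 had fallen. Calls are adjusted p-values under 0.05 in the quasi-likelihood test of edgeR, adjusted by Benjamini and Hochberg's method over 16794 genes, and all adjusted p-values come from this test unless another is named. At 1 h 1 of 9 members was called higher and 4 lower, where 13.8% of all genes tested were higher and 7.16% lower. At 4 h 2 of 9 were called higher and 5 lower, where 33.1% of all genes were higher and 34.8% lower, so the number of members called at 4 h was close to that of the table as a whole. Scaled by library totals alone, 9.07% of all genes were higher and 21.4% lower at 1 h, and 21.2% higher and 52% lower at 4 h. The median log2 fold change of the 9 members was -0.29 at 1 h and -0.51 at 4 h, against 0 and -0.06 over all genes. The TMM factors of the HGF libraries at 4 h were low (0.841 to 0.86, against 1.03 to 1.07 in all MSP and vehicle libraries). With library totals, the median of all genes was -0.11 at 1 h and -0.35 at 4 h. In bulk RNA fewer cells that express a gene and less RNA per cell cannot be told apart.

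**Figure D1:**
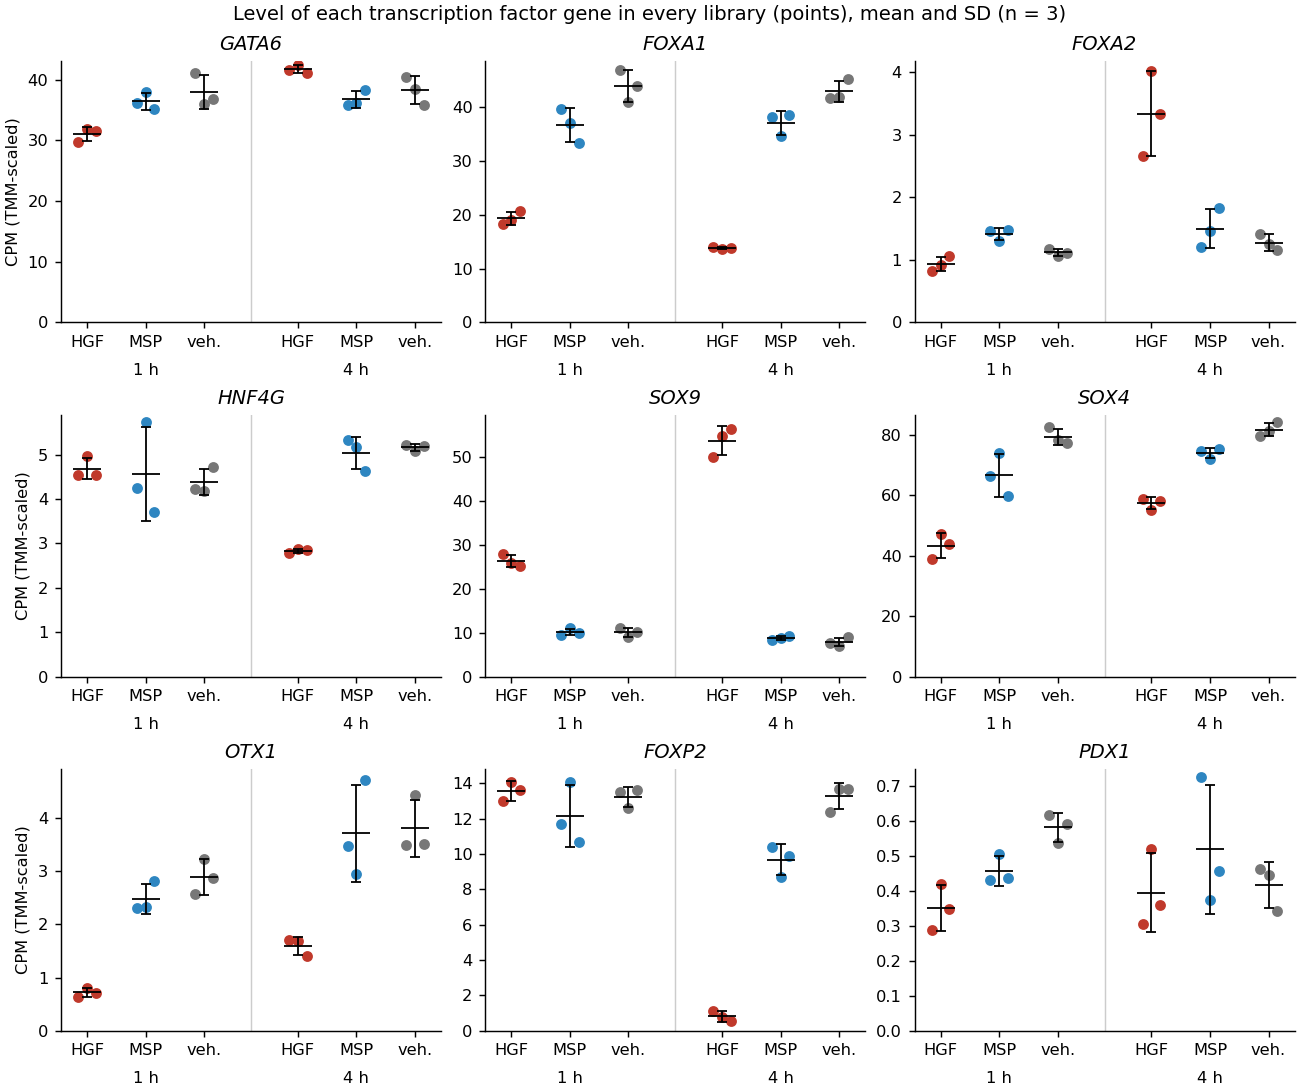
CPM of each of the 9 factors in every library (points), for HGF, MSP and vehicle at 1 h and at 4 h. Each group of 3 is summarised by its average, and error bars give the SD. SOX9 stands high after HGF at both times (25.3 to 28 and 50.1 to 56.4 CPM), FOXA1 stands low at both, and FOXP2 is low in the HGF libraries at 4 h (0.522 to 1.1 CPM).

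SOX9 (ENSG00000125398, chromosome 17 in GENCODE 29), the HMG-box factor of pancreatic progenitors and ducts, was the only member that rose at both times. At 1 h it had 28, 25.9 and 25.3 CPM in the HGF libraries, against 11.1, 8.95 and 10.2 CPM in the vehicle libraries. The 4 h values were 50.1, 54.9 and 56.4 CPM in the HGF libraries, against 7.66, 7.05 and 8.94 CPM in the vehicle libraries. Every HGF library lay above every vehicle library of its time. This gave a log2 fold change of 1.39 (SE 0.08, adjusted p = 9.87e-15, 2.61-fold) at 1 h and 2.77 (SE 0.09, adjusted p = 1.21e-22, 6.82-fold) at 4 h. Ranked by log2 fold change over all 16794 genes tested, SOX9 was the 243rd highest at 1 h and the 108th highest at 4 h.

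SOX4 (ENSG00000124766, chromosome 6), an HMG-box factor of the SOXC group that mice need to form islet cells, moved the other way. It had 39, 47.1 and 43.8 CPM in the HGF libraries at 1 h, against 82.4, 78.1 and 77.4 CPM in the vehicle libraries. At 4 h it had 58.8, 55.2 and 58 CPM in the HGF libraries, against 79.7, 81.2 and 84.2 CPM in the vehicle libraries. The groups did not overlap at either time, and the gap was wider at 1 h. The log2 fold change was -0.87 (SE 0.06, adjusted p = 3.06e-12, 1.83-fold lower) at 1 h and -0.51 (SE 0.06, adjusted p = 3.27e-08, 1.42-fold lower) at 4 h.

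The ratio of the counts of both SOX genes in a library does not depend on library scaling. SOX9 had 0.615 ± 0.0906 counts per SOX4 count in HGF libraries at 1 h, against 0.127 ± 0.0109 in vehicle libraries (SD, n = 3 each). At 4 h the ratio was 0.939 ± 0.0776 in HGF libraries, against 0.0963 ± 0.00968 in vehicle libraries. In 4 h of HGF the count of SOX9 thus came close to that of SOX4 and stayed below it in all 3 libraries (0.851 to 0.995). Per kb of exon SOX9 was then the highest of the 9 factors, at 13.7 ± 0.846 CPM per kb, ahead of GATA6 (10.6), SOX4 (9.8) and FOXA1 (3.48), with no overlap between neighbours in this order.

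FOXA1 (ENSG00000129514, chromosome 14), a forkhead pioneer factor that opens closed chromatin in endodermal cells, fell at both times. It had 18.3, 19 and 20.7 CPM in the HGF libraries at 1 h, against 46.9, 40.9 and 43.9 CPM in the vehicle libraries. The 4 h values were 14.1, 13.7 and 13.8 CPM in the HGF libraries, against 41.7, 41.9 and 45.2 CPM in the vehicle libraries. The HGF libraries were far below every vehicle library at both times, and their spread at 4 h was small. This gave a log2 fold change of -1.18 (SE 0.07, adjusted p = 3.34e-15, 2.26-fold lower) at 1 h and -1.63 (SE 0.07, adjusted p = 9.71e-19, 3.1-fold lower) at 4 h. By log2 fold change it was the 177th lowest of all genes at 1 h and the 864th lowest at 4 h.

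FOXA2 (ENSG00000125798, chromosome 20), the close relative of FOXA1 with overlapping functions in the endoderm, was a low transcript that rose at 4 h. At 1 h it had 0.828, 0.927 and 1.06 CPM in the HGF libraries, against 1.18, 1.07 and 1.11 CPM in the vehicle libraries. At 4 h it had 2.66, 4.02 and 3.33 CPM in the HGF libraries, against 1.42, 1.25 and 1.16 CPM in the vehicle libraries. The 1 h libraries lay just below vehicle, without a call, and the 4 h libraries clearly above it. The log2 fold change was -0.24 (95% interval -0.68 to 0.2, adjusted p = 0.507) at 1 h and 1.39 (SE 0.19, adjusted p = 1.19e-07, 2.61-fold) at 4 h. FOXA2 had 0.241 ± 0.0528 counts per FOXA1 count in HGF libraries at 4 h, against 0.0299 ± 0.00418 in vehicle libraries (SD, n = 3 each). At 1 h the ratio was 0.0485 ± 0.00314 in HGF libraries, against 0.0256 ± 0.000543 in vehicle libraries. FOXA1 therefore kept the larger count in every library.

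**Figure D2:**
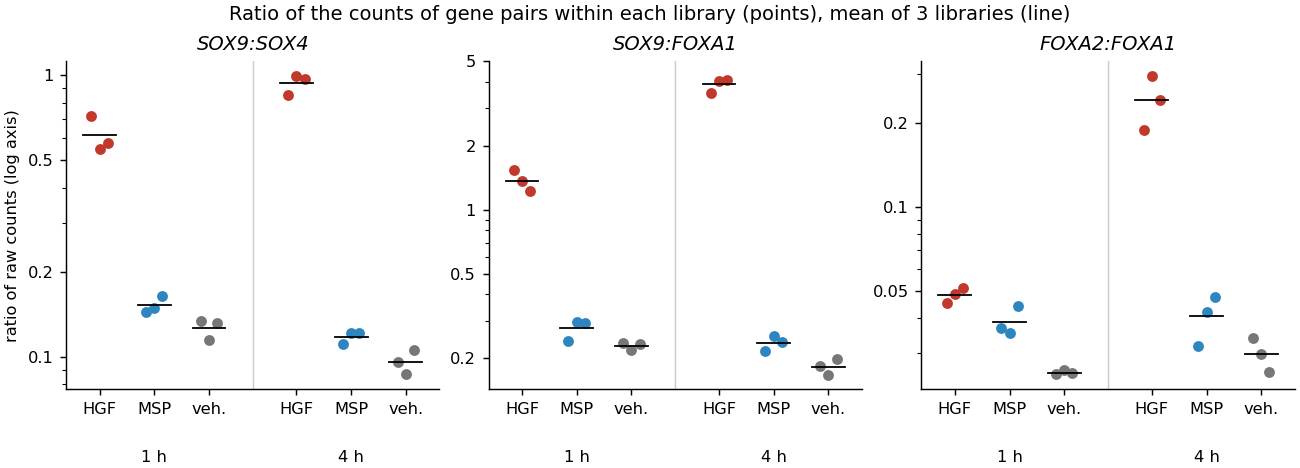
Ratio of raw counts of SOX9 to SOX4, SOX9 to FOXA1 and FOXA2 to FOXA1 within each library (points, log axis), with the mean of the 3 libraries of a group (line). At 4 h SOX9 had 3.88 ± 0.296 counts per FOXA1 count in HGF libraries, against 0.183 ± 0.0149 in vehicle libraries, and the HGF libraries stood highest in all 3 ratios.

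GATA6 (ENSG00000141448, chromosome 18), the zinc finger factor whose loss is known to impair pancreas formation in humans, changed little. It had 29.7, 31.8 and 31.5 CPM in the HGF libraries at 1 h, against 41.1, 35.9 and 36.8 CPM in the vehicle libraries. The 4 h values were 41.5, 42.4 and 41.1 CPM in the HGF libraries, against 40.4, 38.5 and 35.8 CPM in the vehicle libraries. At 1 h every HGF library was below every vehicle library by a modest margin, and at 4 h the HGF libraries sat just above the vehicle libraries. This gave a log2 fold change of -0.29 (SE 0.06, adjusted p = 0.000289, 1.22-fold lower) at 1 h and 0.12 (95% interval 0.01 to 0.24, adjusted p = 0.0598) at 4 h. The 4 h value depended on scaling, since with library totals it was -0.17 (adjusted p = 0.0103) and with DESeq2 0.15 (adjusted p = 0.0238), so GATA6 has no settled direction at 4 h.

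OTX1 (ENSG00000115507, chromosome 2), a homeodomain factor known from forebrain development, had the steepest fall of the 9 at 1 h. It had 0.637, 0.807 and 0.717 CPM in the HGF libraries at 1 h, against 2.57, 3.24 and 2.87 CPM in the vehicle libraries. At 4 h it had 1.71, 1.68 and 1.4 CPM in the HGF libraries, against 3.49, 4.43 and 3.52 CPM in the vehicle libraries. The groups were apart at both times, on counts of 20 to 33 in the HGF libraries at 1 h. The log2 fold change was -2 (SE 0.20, adjusted p = 2.33e-09, 4-fold lower) at 1 h, the 27th lowest of all genes. It was -1.26 (SE 0.18, adjusted p = 4.36e-07, 2.39-fold lower) at 4 h, the 1554th lowest.

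FOXP2 (ENSG00000128573, chromosome 7), a forkhead repressor whose family acts in the alpha cells of the mouse pancreas, did not pass the test at 1 h and was almost lost at 4 h. At 1 h it had 13, 14.1 and 13.6 CPM in the HGF libraries, against 13.5, 12.6 and 13.6 CPM in the vehicle libraries. The 4 h values were 1.1, 0.782 and 0.522 CPM in the HGF libraries, against 12.4, 13.7 and 13.7 CPM in the vehicle libraries. The 1 h groups overlapped, and the 4 h HGF libraries were below all other 15 libraries. This gave a log2 fold change of 0.03 (95% interval -0.16 to 0.23, adjusted p = 0.873) at 1 h and -4.06 (SE 0.16, adjusted p = 3.67e-20, 16.7-fold lower) at 4 h. The 4 h value was the 28th lowest of all genes. In the order of levels per kb FOXP2 was the lowest of the 9 factors in the HGF libraries at 4 h (0.0497 CPM per kb), below PDX1 (0.158). That order rests on exon length, 16152 bases for FOXP2 and 2501 for PDX1. In CPM FOXP2 averaged more than PDX1 in these libraries, at 0.803 ± 0.291 against 0.395 ± 0.113 CPM (SD, n = 3 each).

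HNF4G (ENSG00000164749, chromosome 8), a nuclear receptor of the gut and pancreas related to HNF4A, had 4.55, 4.96 and 4.54 CPM in the HGF libraries at 1 h, against 4.22, 4.19 and 4.71 CPM in the vehicle libraries. At 4 h it had 2.78, 2.87 and 2.84 CPM in the HGF libraries, against 5.22, 5.08 and 5.19 CPM in the vehicle libraries. The groups overlapped at 1 h and were apart at 4 h. Its log2 fold change was 0.1 (95% interval -0.16 to 0.35, adjusted p = 0.679) at 1 h and -0.87 (SE 0.14, adjusted p = 2.64e-06, 1.83-fold lower) at 4 h.

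PDX1 (ENSG00000139515, chromosome 13), the homeodomain factor without which no pancreas forms, gave only loose estimates. It had 0.287, 0.419 and 0.347 CPM in the HGF libraries at 1 h, against 0.617, 0.536 and 0.592 CPM in the vehicle libraries. The 4 h values were 0.305, 0.521 and 0.359 CPM in the HGF libraries, against 0.463, 0.446 and 0.341 CPM in the vehicle libraries. The 1 h groups did not overlap, on 9 to 16 counts in HGF libraries and 22 to 25 in vehicle libraries, and the 4 h groups did. The log2 fold change was -0.72 (95% interval -1.38 to -0.06, adjusted p = 0.122) at 1 h and -0.08 (95% interval -0.81 to 0.66, adjusted p = 0.863) at 4 h. Both intervals were wider than those of the other 8 members after HGF.

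**Figure D3:**
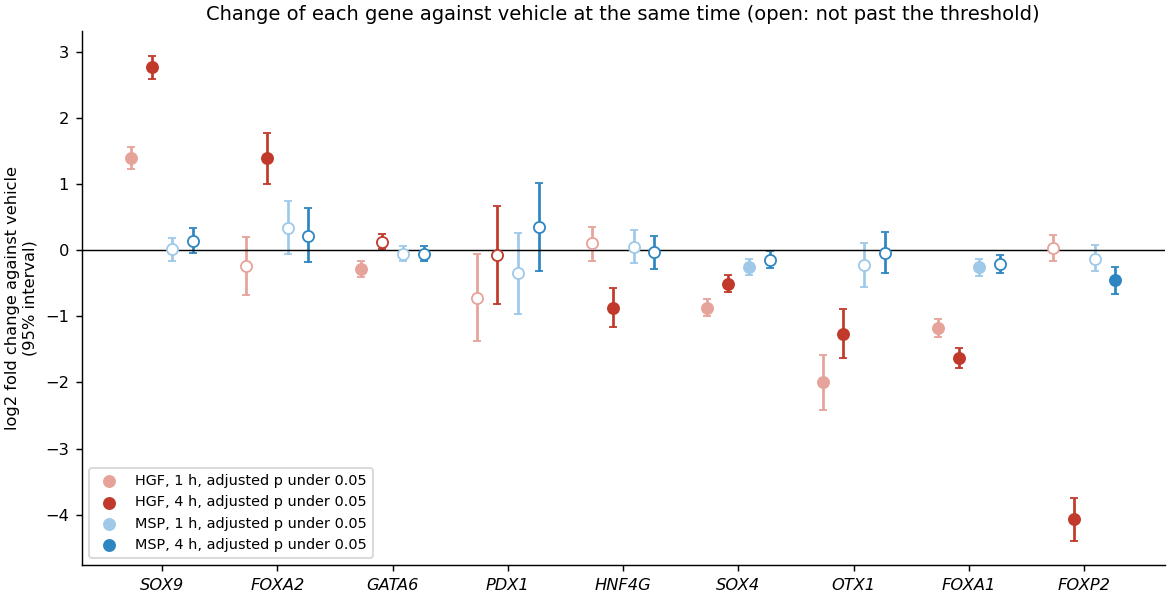
Log2 fold change with 95% interval of each factor for HGF against vehicle and MSP against vehicle at 1 h and 4 h, with filled symbols for calls at an adjusted p under 0.05. HGF estimates run from -4.06 (FOXP2, 4 h) to 2.77 (SOX9, 4 h), and the called MSP estimates from -0.45 to -0.25.

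The response to HGF differed between the times for 8 of the 9 members in a test of the difference itself, where 26.8% of all genes were higher at 4 h relative to 1 h and 26.4% lower (18.6% and 37.9% with library totals). The difference of log2 fold changes, 4 h minus 1 h, was positive for FOXA2 (1.63, SE 0.28, adjusted p = 1.44e-05), SOX9 (1.38, SE 0.12, adjusted p = 2.5e-11), OTX1 (0.74, SE 0.28, adjusted p = 0.0277), GATA6 (0.41, SE 0.08, adjusted p = 8.38e-05) and SOX4 (0.36, SE 0.09, adjusted p = 0.00101). It was negative for FOXP2 (-4.1, SE 0.19, adjusted p = 2.48e-17), HNF4G (-0.96, SE 0.19, adjusted p = 6.87e-05) and FOXA1 (-0.45, SE 0.10, adjusted p = 0.000274). For OTX1 and SOX4 the positive sign means a smaller fall at 4 h. Both of these calls were lost with library totals, at 0.55 for OTX1 (adjusted p = 0.102) and 0.17 for SOX4 (adjusted p = 0.0962). That of OTX1 was also lost without replicate 1 or 3 of HGF at 1 h, 1 or 2 of HGF at 4 h, 2 of vehicle at 1 h, or 1 or 3 of vehicle at 4 h (adjusted p 0.052 to 0.0666). For PDX1 the difference was 0.65 (95% interval -0.35 to 1.64, adjusted p = 0.276).

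Vehicle libraries of the 2 times were compared to show what moved without a ligand. SOX9 alone was called, 1 of 9 members lower and none higher, where 9.99% of all genes were lower and 10.9% higher (12.2% and 8.77% with library totals). It had 7.66, 7.05 and 8.94 CPM in vehicle at 4 h, against 11.1, 8.95 and 10.2 CPM in vehicle at 1 h, with a log2 fold change of -0.35 (SE 0.09, adjusted p = 0.00693). The groups lay next to each other without overlap, and the call was lost without replicate 1 of vehicle at 1 h (-0.28, adjusted p = 0.0533) or replicate 2 of vehicle at 4 h (-0.28, adjusted p = 0.0615). Among the other members OTX1 was at 0.4 (95% interval 0.07 to 0.72, adjusted p = 0.0747), PDX1 at -0.48 (95% interval -1.13 to 0.17) and HNF4G at 0.24 (95% interval -0.02 to 0.5). Estimates for FOXP2, GATA6, FOXA1 and SOX4 lay between -0.03 and 0.04, and FOXA2 was at 0.18.

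MSP moved few members, and by small amounts. The comparisons with MSP use the same vehicle libraries as those with HGF, so their values are set side by side. At 1 h 2 of 9 members, FOXA1 and SOX4, were called lower and none higher, where 0.0536% of all genes were lower and 0.78% higher. FOXA1 had 39.6, 37.1 and 33.3 CPM in the MSP libraries at 1 h, against 46.9, 40.9 and 43.9 CPM in the vehicle libraries. SOX4 had 66.2, 73.9 and 59.6 CPM in the MSP libraries at 1 h, against 82.4, 78.1 and 77.4 CPM in the vehicle libraries. For both genes the MSP libraries lay below the vehicle libraries, with narrow gaps and a wide spread among the MSP libraries. The log2 fold change after MSP was -0.26 (SE 0.06, adjusted p = 0.0401) for FOXA1 and -0.25 (SE 0.06, adjusted p = 0.0368) for SOX4, beside -1.18 and -0.87 after HGF.

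Both 1 h calls after MSP were fragile. With the replicate number as a block, the adjusted p was 0.0301 for FOXA1 and 0.0543 for SOX4. Without the robust step it was 0.0585 for FOXA1 and 0.0513 for SOX4, and with only the groups compared 0.269 and 0.255. Without replicate 1 or 3 of vehicle or replicate 3 of MSP, the adjusted p of FOXA1 was 0.381, 0.135 and 0.296 in that order. SOX4 kept its call only when replicate 2 of MSP was left out, and without any other single library of these groups its adjusted p was 0.0855 to 0.276. Their log2 fold changes stayed negative throughout, from -0.32 to -0.2 for FOXA1 and from -0.33 to -0.18 for SOX4.

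At 4 h 1 of 9 members, FOXP2, was called lower after MSP and none higher, where 0.292% of all genes were lower and 0.774% higher. FOXP2 had 10.4, 8.69 and 9.9 CPM in the MSP libraries at 4 h, against 12.4, 13.7 and 13.7 CPM in the vehicle libraries. The MSP libraries lay below all 3 vehicle libraries and far above the HGF libraries of that time (0.522 to 1.1 CPM). This gave a log2 fold change of -0.45 (SE 0.10, adjusted p = 0.0182), beside -4.06 after HGF. The call was lost without vehicle replicate 2 or 3 (adjusted p = 0.108 and 0.163) and without MSP replicate 2 or 3 (adjusted p = 0.225 and 0.055).

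At 4 h FOXA1 was at -0.21 after MSP (95% interval -0.34 to -0.08, adjusted p = 0.116) and SOX4 at -0.15 (95% interval -0.27 to -0.02, adjusted p = 0.307). SOX9 was at 0.01 at 1 h (95% interval -0.17 to 0.18, adjusted p = 0.992) and 0.14 at 4 h (95% interval -0.05 to 0.34, adjusted p = 0.608). Its MSP libraries, at 9.56, 11 and 9.83 CPM at 1 h and 8.25, 8.77 and 9.14 CPM at 4 h, overlapped the vehicle libraries at both times. GATA6 was at -0.06 at both times, with 95% intervals of -0.17 to 0.06. The intervals of FOXA2 (-0.06 to 0.74 at 1 h), OTX1 (-0.56 to 0.11 at 1 h) and PDX1 (-0.96 to 0.26 at 1 h) were wide and included 0. They allow no change as well as a change larger than the estimate. The MSP libraries of FOXA2 at 1 h (1.31 to 1.48 CPM) lay above the vehicle libraries (1.07 to 1.18 CPM) without a call. Those of PDX1 at 1 h, and of FOXA1 and SOX4 at 4 h, lay below the vehicle libraries, also without a call. HNF4G was at 0.05 at 1 h (95% interval -0.2 to 0.31) and -0.03 at 4 h (95% interval -0.29 to 0.22). The difference of the MSP response between the times was called for 0 of 9 members, where 0.0476% of all genes were higher and 0.274% lower. No member passed it with DESeq2 either, and FOXP2 was the only one with an unadjusted p under 0.05 (-0.33, 95% interval -0.61 to -0.04, adjusted p = 0.52).

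Set directly against MSP, HGF gave different levels for most members. At 1 h SOX9 was higher and FOXA1, SOX4, OTX1, GATA6 and FOXA2 lower in HGF than in MSP libraries, 1 and 5 of 9 members, where 11.4% of all genes were higher and 6.36% lower (7.72% and 18.5% with library totals). At 4 h SOX9, FOXA2 and GATA6 were higher and FOXA1, FOXP2, OTX1, HNF4G and SOX4 lower, 3 and 5 of 9 members, where 32.7% of all genes were higher and 33.8% lower (19.8% and 53.4% with library totals). SOX9 differed by a log2 fold change of 1.38 (SE 0.08, adjusted p = 1.21e-14) at 1 h and 2.63 (SE 0.08, adjusted p = 3.33e-22) at 4 h. FOXA1 differed by -0.92 (SE 0.07, adjusted p = 2.08e-12) at 1 h and -1.42 (SE 0.07, adjusted p = 3.86e-17) at 4 h. FOXP2 differed by -3.61 (SE 0.16, adjusted p = 1.83e-18) at 4 h, and at 1 h by 0.16 (95% interval -0.04 to 0.36, adjusted p = 0.311). At 1 h FOXA2 had 0.828, 0.927 and 1.06 CPM in the HGF libraries, against 1.47, 1.31 and 1.48 CPM in the MSP libraries. These did not overlap, with a log2 fold change of -0.58 (SE 0.20, adjusted p = 0.0467), but the call was lost with DESeq2 (adjusted p = 0.0665), with no filter (adjusted p = 0.0765), with only the groups compared (adjusted p = 0.0596) and without any single library other than MSP replicate 2 (adjusted p 0.0531 to 0.156). GATA6 was higher at 4 h by 0.18 (SE 0.06, adjusted p = 0.00722), which turned to -0.12 (adjusted p = 0.0617) with library totals.

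Genes whose 6 group means followed a member most closely were found by the root mean square difference of centred log2 CPM, among 12469 other genes with a symbol and a mean of at least 1 CPM (12470 for PDX1, which is itself under that mean). This is a description over 6 means from the same 18 libraries. Nearest to SOX9 were KDM7A, a histone demethylase (0.143), DKK1, a secreted inhibitor of Wnt signalling (0.147), and TGFA, a ligand of the EGF receptor (0.157), and only 8 genes came within 0.2. Nearest to FOXP2 were KLHL24 (0.156), RARB, a retinoic acid receptor (0.169), and SRGAP3 (0.173), the only 3 within 0.2. OTX1 had 4 genes within 0.2, led by the zinc finger genes ZNF792 (0.14) and ZNF230 (0.147) and by ATP6V0D1-DT (0.192). FOXA1 had 26, led by CYP2R1, a vitamin D hydroxylase (0.106), SAP30L-AS1 (0.121) and UFL1-AS1 (0.126).

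For the other members more genes were as near. Nearest to SOX4 were BORCS6 (0.058), ISL1, a LIM homeodomain factor of islet cells (0.062), and ZNF684 (0.067), of 224 genes within 0.2. Nearest to FOXA2 were ZNF696 (0.098), ZNHIT2 (0.117) and LINC02323 (0.119), of 159. HNF4G had 2075 genes within 0.2, led by ZFYVE26, POLA2 and CDCA7 (0.031 to 0.034), and GATA6 had 4744, led by AADAC, MRS2 and APIP (0.028 to 0.031). PDX1 had 1010, led by ZNF613 (0.104), EIF4BP3 (0.105) and SULT1A1 (0.107).

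Other regulatory genes of the gut and pancreas were read for comparison, as a list of 37 genes of which 22 were tested. After HGF 4 were higher and 3 lower at 1 h, and 5 higher and 10 lower at 4 h, with medians of 0.01 and -0.29, where all genes had 0 and -0.06 (library totals gave 4 and 5, then 3 and 13). Of all genes tested 13.8% were higher and 7.16% lower at 1 h, and 33.1% higher and 34.8% lower at 4 h. ELF3, an epithelial ETS factor, had 44.2 ± 4.35 CPM in HGF libraries at 1 h, against 21.9 ± 1.09 CPM in vehicle libraries (log2 fold change 1.01, SE 0.07, adjusted p = 1.12e-13). At 4 h it had 3.39 ± 0.342 CPM in HGF libraries, against 18.3 ± 0.392 CPM in vehicle libraries (log2 fold change -2.42, SE 0.09, adjusted p = 2.75e-20). ELF3 was thus above vehicle at 1 h and below it at 4 h, though it shares 664 bases with ELF3-AS1 on the opposite strand. HHEX, a homeobox gene of the early liver and pancreas, did the reverse, at 4.25 ± 0.472 CPM in HGF libraries against 8.11 ± 0.917 CPM in vehicle libraries at 1 h, and 11.7 ± 0.672 CPM in HGF libraries against 7.49 ± 0.507 CPM in vehicle libraries at 4 h. MNX1 and MEIS2, homeobox genes, fell at 4 h by 1.52 and 1.34 on the log2 scale. KLF5 fell at 1 h by 0.9 on the log2 scale, and its 4 h value of 0.39 (adjusted p = 3.99e-05) came to 0.1 (adjusted p = 0.181) with library totals. BHLHA15, an acinar cell factor, was chosen here after its values were seen and lies under the 1 CPM asked of named genes. Its values are therefore description only. It had 0.657 ± 0.0264 CPM in HGF libraries at 4 h, against 0.0198 ± 0.0343 CPM in vehicle libraries, a level too near 0 in vehicle for a fold.

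Relatives of the members in the GATA, FOX, SOX and OTX families were a list of 36, of which 25 were tested. After HGF 12 were higher and 3 lower at 1 h, and 12 higher and 10 lower at 4 h, with medians of 0.15 and -0.08 (library totals gave 9 and 5, then 12 and 12), where all genes had 13.8% higher and 7.16% lower, then 33.1% and 34.8%. The forkhead genes FOXC2 and FOXL1 rose at both times, FOXC2 to 8.43 ± 0.766 CPM in HGF libraries at 4 h against 0.813 ± 0.101 CPM in vehicle libraries, and FOXL1 to 88.1 ± 2.83 CPM in HGF libraries against 18.2 ± 0.757 CPM in vehicle libraries. GATA3 fell at both times, at 4.71 ± 0.597 CPM in HGF libraries at 4 h against 26.8 ± 0.69 CPM in vehicle libraries (log2 fold change -2.5, SE 0.09, adjusted p = 2.27e-21). FOXN3 and SOX12 fell at 4 h by 1.79 and 1.64 on the log2 scale.

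Gene sets of tumour subtypes were read in the same way, against 13.8% of all genes higher and 7.16% lower at 1 h, 33.1% and 34.8% at 4 h, and medians of 0 and -0.06. Of 24 genes of classical tumours 14 were tested, with 1 higher and 0 lower 1 h after HGF and 4 higher and 7 lower at 4 h (medians -0.07 and -0.31, and with library totals 1 and 3, then 3 and 8). TFF1, a secreted trefoil peptide, rose at 4 h to 6.75 ± 0.479 CPM in HGF libraries against 2.53 ± 0.381 CPM in vehicle libraries. ANXA10 was at 122 ± 1.93 CPM in HGF libraries against 59.1 ± 1.18 CPM in vehicle libraries at 4 h, and CEACAM6 had a log2 fold change of 0.59. Among those called lower at 4 h, the log2 fold changes of ST6GALNAC1, TSPAN8 and SPINK4 were -1.17, -0.54 and -0.36. Of 25 genes of basal-like tumours 24 were tested, with 11 higher and 2 lower at 1 h and 16 higher and 4 lower at 4 h (medians 0.25 and 0.86, and with library totals 9 and 4, then 16 and 7). Of these, AREG, an EGF receptor ligand, had 169 ± 4.55 CPM in HGF libraries at 4 h against 24 ± 2.53 CPM in vehicle libraries, and KRT15 fell by 1.17 on the log2 scale. Of 21 basal and squamous transcription factors 16 were tested, with 5 higher and 3 lower at 1 h and 8 higher and 5 lower at 4 h (medians 0.03 and 0.15). With library totals the 4 h counts turned to 5 higher and 8 lower. FOSL1, an AP-1 subunit, had 803 ± 13.1 CPM in HGF libraries at 4 h against 30.7 ± 4.05 CPM in vehicle libraries, and TP73, a p53 relative, fell to 1.75 ± 0.236 CPM in HGF libraries against 37.4 ± 0.888 CPM in vehicle libraries. The 9 members themselves, some of which are used as classical markers, are in none of these counts.

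**Figure D4:**
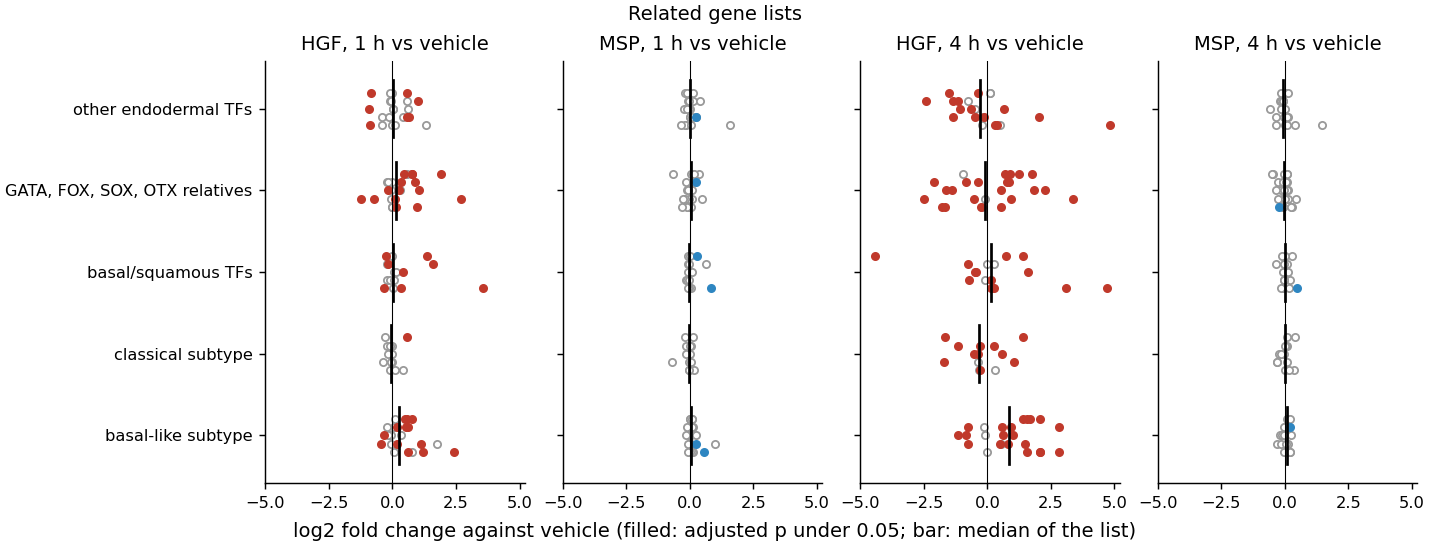
Log2 fold change of each tested gene (points, filled for an adjusted p under 0.05) of the 5 related lists for HGF and MSP against vehicle at 1 h and 4 h, with the median of each list (bar). After HGF at 4 h the medians run from -0.31 (classical subtype) to 0.86 (basal-like subtype), and after MSP they lie between -0.05 and 0.08 at both times.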

How the data were processed

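Whole-number gene counts were used as the authors deposited them, 1 column for each of 18 libraries (3 in each of 6 groups). Libraries came from a KAPA mRNA kit, per the labels. STAR and featureCounts of Subread were used, per the submitters' processing notes. Build, annotation and strand setting were not given in the sources used here. Of 58395 identifiers 57754 were named from a gene name table, and 58275 were in GENCODE 29, which gave chromosomes, exon lengths (all annotated exons joined) and overlaps. A count of 0 allows 3 counts, 0.0619 to 0.0982 CPM of library totals, for counting error only.

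Genes were kept by filterByExpr (minimum count 10, minimum total 15), scaled by TMM and fitted with edgeR 4.0.16 (robust quasi-likelihood, 1 mean per group, all libraries, residual df 12) in R 4.3.3. Benjamini-Hochberg adjustment ran over 16794 genes in each of 9 comparisons. The SE is the absolute log2 fold change over the square root of F. Alternatives were size factors, library totals, no filter, no robust step, only the groups compared, a replicate block, DESeq2 1.42.0 and leaving out each library. Replicates of a group differed beyond counting error, with a chi-square of 3.03 to 20.21 for each degree of freedom. The highest values were those of the MSP libraries at 1 h (7.2, 10.2 and 20.21), and no pair of another group was above 5.75.

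The members and lists were chosen with earlier results of these data known. The rule names all 9 members, the 3 genes nearest to each, and from each list up to 3 called genes in each direction by log2 fold change, where the 6 libraries compared averaged 1 CPM or more. The text gives a selection of these, and adds further cell type markers and BHLHA15, which the rule does not name.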

Additional observations from a re-analysis of the deposited data

Results flagged for a closer look

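For 8 of the 9 factors the response to HGF differed between 4 h and 1 h in a test of the difference itself (quasi-likelihood test of edgeR, Benjamini-Hochberg adjusted). The differences of log2 fold changes, 4 h minus 1 h, were -4.1 for FOXP2, 1.63 for FOXA2, 1.38 for SOX9, -0.96 for HNF4G, 0.74 for OTX1, -0.45 for FOXA1, 0.41 for GATA6 and 0.36 for SOX4. Over all genes tested 26.8% were higher and 26.4% lower in this way. FOXP2 and HNF4G were called after HGF at 4 h and not at 1 h, and FOXA2 likewise in the other direction. SOX9 and FOXA1 moved further from vehicle at 4 h, and SOX4 and OTX1 less far. Vehicle libraries at 4 h themselves stood at -0.35 for SOX9 (adjusted p = 0.00693) and 0.4 for OTX1 (adjusted p = 0.0747) against vehicle at 1 h. Scaled by library totals, the differences of SOX4 (0.17) and OTX1 (0.55) did not pass the test, and that of GATA6 was 0.22 (adjusted p = 0.019).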

How the results depend on the processing

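Of 38 calls for the 9 factors in 9 comparisons, 30 held under every alternative tried, 7 were lost under at least 1 of them with their sign kept, and 1, GATA6 for HGF against MSP at 4 h, changed sign (0.18 with TMM factors, -0.12 with library totals). GATA6 for HGF against vehicle at 4 h was not called at 0.12 and was called at -0.17 with library totals. For MSP against vehicle at 1 h the number of members called was 2, but 0 without the robust step, 0 with only the groups compared, 1 with the replicate block and 0 to 2 with 1 library left out. At 4 h it was 1, but 2 with only the groups compared and 0 to 1 with 1 library left out. For vehicle over time it was 1, and 0 to 1 with 1 library left out. Same-numbered libraries showed no shared deviation, with 21 correlations from -0.05 to 0.09. These correlations cannot show whether such libraries were cultured or handled together. The replicate block changed no other count by over 1.5 times. The cause of these changes was not tested.

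Signs of other uncalled values also turned. With library totals HNF4G became -0.01 and FOXP2 -0.07 for HGF at 1 h, SOX9 0 for MSP at 1 h, HNF4G -0.05 for HGF against MSP at 1 h, and GATA6 -0.01 and FOXP2 -0.02 for vehicle over time. With no filter GATA6 became 0 and FOXP2 -0.01 for vehicle over time, as they did with only the groups compared, where SOX9 was 0 for MSP at 1 h. With 1 library left out, ranges that crossed or reached 0 were 0 to 0.06 for FOXP2 after HGF at 1 h and -0.31 to 0.07 for PDX1 after HGF at 4 h. After MSP at 1 h they were -0.1 to 0 for GATA6, -0.14 to 0.18 for HNF4G and -0.07 to 0.08 for SOX9. After MSP at 4 h they were -0.08 to 0.02 for HNF4G, -0.24 to 0.1 for OTX1 and 0 to 0.53 for PDX1. For HGF against MSP at 1 h HNF4G ran from -0.09 to 0.23. For the difference of the MSP response they were -0.06 to 0.04 for GATA6, -0.01 to 0.11 for FOXA1, -0.29 to 0.03 for FOXA2, -0.21 to 0.11 for HNF4G and -0.01 to 0.32 for OTX1. For vehicle over time they were -0.03 to 0.07 for GATA6, -0.08 to 0.02 for FOXA1 and -0.03 to 0.05 for FOXP2. Depth limits PDX1 most, at 8 to 33 counts per library.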

Other observations

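Keratins of simple epithelium moved in both directions after HGF. KRT8 and KRT18 share 525 exon bases on opposite strands, so part of the counts of each could belong to the other. KRT18 had 1470 ± 40.7 CPM in HGF libraries at 4 h against 684 ± 13.1 CPM in vehicle libraries (SD, n = 3 each, log2 fold change 1.1, adjusted p = 2.22e-20 by edgeR, as in all tests here), and KRT8 had 1640 ± 72 CPM in HGF libraries against 1030 ± 26.3 CPM in vehicle libraries. KRT7 was at 1290 ± 32.9 CPM in HGF libraries against 910 ± 33.3 CPM in vehicle libraries at 4 h, while KRT19 was at 2140 ± 111 CPM in HGF libraries against 2310 ± 106 CPM in vehicle libraries (log2 fold change -0.11, adjusted p = 0.0283). MUC1, a surface mucin, was at 47.8 ± 2.5 CPM in HGF libraries against 64.7 ± 3.62 CPM in vehicle libraries. With library totals these log2 fold changes kept their sign, at 0.81 for KRT18, 0.38 for KRT8, 0.22 for KRT7, -0.4 for KRT19 and -0.73 for MUC1. At 1 h KRT19 was at 0.18 (adjusted p = 0.00264), and at 0.08 (adjusted p = 0.134) with library totals.

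After 1 h of MSP 1 of 22 other endodermal genes, 1 of 25 relatives, 0 of 14 classical genes, 2 of 24 basal-like genes and 2 of 16 basal and squamous factors were called higher and none lower, where 0.78% of all genes were higher and 0.0536% lower. After 4 h 1 relative was lower, and 1 basal-like gene (DHRS9) and 1 basal and squamous factor were higher, where 0.774% of all genes were higher and 0.292% lower. At 1 h FOSL1 had 116 ± 5.09 CPM in MSP libraries against 65.2 ± 6.74 CPM in vehicle libraries (log2 fold change 0.83, adjusted p = 2.82e-06), AREG had 47.3 ± 2.33 CPM in MSP libraries against 32 ± 2.55 CPM in vehicle libraries, and HES1, a Notch target, had 92.3 ± 2.94 CPM in MSP libraries against 77.2 ± 0.721 CPM in vehicle libraries. The 1 h log2 fold changes were 3.58 after HGF and 0.83 after MSP for FOSL1, 2.43 and 0.56 for AREG, and 0.59 and 0.26 for HES1, with the vehicle libraries shared by both comparisons. At 4 h FOXN3 was lower after MSP (log2 fold change -0.23, adjusted p = 0.0169) and FOSL1 still higher (0.47, adjusted p = 0.0139).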
